A study of Mus musculus with 6 samples.

Results

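The 10 genes described here encode transcription factors that are studied in oocytes: Nobox, Figla, Sohlh1, Sohlh2, Lhx8, Taf4b, Tbpl2, Gcm1, Foxo1 and Bnc1. They were taken by symbol from the gene expression table of an RNA-Seq comparison between oocytes of wild type (WT) mice and of Lsm14b-knockout (Lsm14b-KO) mice, and all 10 were found among its 24255 genes. LSM14B is an RNA-binding protein of oocytes, and the comparison asks how its loss alters the pool of maternal mRNAs. The oocytes were fully-grown oocytes (FGOs) at the germinal vesicle (GV) stage, in which growth is complete and meiosis is held in its first prophase. Lsm14b-KO oocytes came from females homozygous for Lsm14b tm1a(KOMP)Mbp, a knockout-first insertion with a reporter that acts in the whole body and not in oocytes alone. Both genotypes were of the C57BL/6J background and had received 5 IU of PMSG, a hormone that drives follicle growth, 46 h before collection. Each of the 3 WT and 3 Lsm14b-KO libraries was made from 20 oocytes, and the labels give neither the age of the females nor whether the libraries of a genotype came from different females.

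The factors act in an order along oogenesis. SOHLH1 and SOHLH2 are helix-loop-helix proteins that start the differentiation of the oocyte, and NOBOX and LHX8, both homeodomain proteins, and FIGLA, another helix-loop-helix protein, carry the program through the primordial and growing follicle. TAF4B and TBPL2 belong to the general transcription machinery: TAF4B is a gonad-enriched subunit of TFIID, the complex that recognises core promoters, and TBPL2 is the paralogue of the TATA-binding protein TBP that works in growing oocytes together with TFIIA. FOXO1 is a forkhead factor best known in the granulosa cells of the follicle, BNC1 is a zinc-finger protein of germ cells and epithelia, and GCM1 is a factor of the placental trophoblast. Transcription is shut down once the oocyte is fully grown, so the mRNAs measured at the GV stage are largely ones stored during growth.

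Levels were FPKM, which corrects fragment numbers for transcript length and library size, as the authors deposited them. They can be set side by side between genes of a library. The tests were run with limma on log2(FPKM + 1) over the 6398 genes that reached 1 FPKM in at least 1 library, with p-values adjusted over all of them. Fold changes on this scale are Lsm14b-KO minus WT and understate the change of genes near or below 1 FPKM.

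Lsm14b itself, the targeted gene, had 2.77, 3.98 and 1.72 FPKM in WT, whereas the Lsm14b-KO libraries listed it at 0, 0 and 0.102. The libraries carried the markers of oocytes: all 10 listed markers were tested, and their summed level was 44430 to 56600 FPKM in WT and 30020 to 74670 in Lsm14b-KO. Most of that sum was Dppa3, at 34580 to 47680 FPKM in WT and 19430 to 63630 in Lsm14b-KO. The marker Ddx4 was under 1 FPKM in each WT library. Of 15 cumulus and granulosa cell markers, 6 were at 0 in all 6 libraries (Amh, Foxl2, Cyp11a1, Inhba, Gatm and Ptx3), and the summed level was 9.89 to 13.6 FPKM in WT and 6.23 to 10.4 in Lsm14b-KO. Of these markers Cyp19a1, the aromatase of granulosa cells, was lower in Lsm14b-KO (-0.98, adjusted p = 0.0426, up to 0.143 without 1 library), but not with TPM scaling (-0.38, adjusted p = 0.308) or quantile normalization (-0.79, 0.0831), while the FSH receptor gene Fshr (0.73, adjusted p = 0.0923) and Inha (0.38, adjusted p = 0.301) did not pass. All 5 red blood cell and all 4 leukocyte markers were listed at 0, as were 5 of 7 theca and stroma markers. A value listed at 0 can also be an estimate that failed, since 13 of 83 cytosolic ribosomal protein genes, which every cell uses, were at 0 in at least 1 library. The FPKM columns summed to between 1141324 and 1244182 in WT and to between 564671 and 1029728 in Lsm14b-KO. The scaling per fragment, as judged from the commonest ratio of very low values, differed as well. Its divisor in the Lsm14b-KO libraries was 1.33 to 2.18 times that of WT replicate 1. Sequencing depth and the normalization of the deposited values cannot be told apart here, because fragment numbers are not given. Lsm14b-KO replicate 2 stood farthest from WT, with correlations of 0.867 to 0.890 with the WT libraries, and Lsm14b-KO replicate 1 stood nearest, at 0.952 to 0.954. The part of depth or of this scaling in the results was not tested, and a level per pooled library cannot tell fewer transcripts per oocyte from fewer oocytes that hold them.

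The promoters of Nobox and Lhx8 are shown because these genes were the members past the threshold, and because NOBOX and LHX8 act with helix-loop-helix factors whose general binding motif is the E-box, CANNTG. Both were read from the RefSeq promoter windows (GRCm38.p6), lie on the minus strand and run 5′ to 3′, with each E-box in capitals. That of Nobox covers the 250 bases before the transcription start, at chr6:43309555-43309804. That of Lhx8 covers chr3:154330660-154330810, 151 bases that end where the longer GENCODE transcript begins, 99 bases before the RefSeq start.
Nobox: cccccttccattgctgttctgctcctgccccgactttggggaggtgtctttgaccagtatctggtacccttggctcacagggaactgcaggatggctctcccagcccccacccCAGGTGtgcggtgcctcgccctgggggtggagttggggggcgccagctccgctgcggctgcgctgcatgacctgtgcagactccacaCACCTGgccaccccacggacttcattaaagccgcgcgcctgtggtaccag
Lhx8: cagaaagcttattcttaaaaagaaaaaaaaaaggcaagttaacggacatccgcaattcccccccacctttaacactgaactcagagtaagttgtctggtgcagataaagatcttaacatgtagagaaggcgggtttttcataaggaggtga
The Nobox window held 2 E-boxes, which began 137 and 50 bases before the start. Both read CAGGTG on one strand or the other, a form that is counted within CANNTG. At least 1 CANNTG, which reads the same on both strands in its fixed letters, was found in 66.2% of 32851 RefSeq promoter windows of 250 bases, and at least 2 in 31.8%. CAGGTG, searched on both strands, was found at least once in 17.2% of the windows and at least 2 times in 2.06%. It was not particular to Nobox among the members: the Sohlh1 window also held 2, and those of Figla and Tbpl2 held 1 each. The Lhx8 window of 250 bases held no CANNTG. Of the other members, 7 had a window in the table: it held 5 CANNTG for Sohlh1, 4 for Tbpl2, 2 each for Figla and Gcm1, 1 each for Sohlh2 and Foxo1, and 0 for Bnc1. The homeodomain core motifs TAATTA and TAATTG, searched on both strands, were in none of the 9 windows, against 4.84% and 7.17% of all windows. These matches describe letters and are not sites of binding.

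Nobox and Lhx8 mRNAs were more abundant in Lsm14b-KO than in WT FGOs, Nobox by 5.26-fold and Lhx8 by 1.83-fold of the group means. Bnc1, Taf4b and Foxo1 were 1.77 to 2.32 times as abundant, with every Lsm14b-KO library above every WT library, but their tests missed the threshold. Figla and Tbpl2 did not separate the genotypes, and Sohlh1, Sohlh2 and Gcm1 were listed at or near 0 throughout. Of the 10 members, 7 were tested and 2 were past an adjusted p of 0.05, both higher in Lsm14b-KO. Among all tested genes, 21.6% were past it, 6.38% as higher and 15.2% as lower in Lsm14b-KO. All Lsm14b-KO libraries lay above all WT libraries for 5 members and below for 0, against 19.1% and 26.0% of all tested genes. The median log2 fold change was 0.67 over the 7 tested members and -0.075 over all tested genes.

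**Figure D1:**
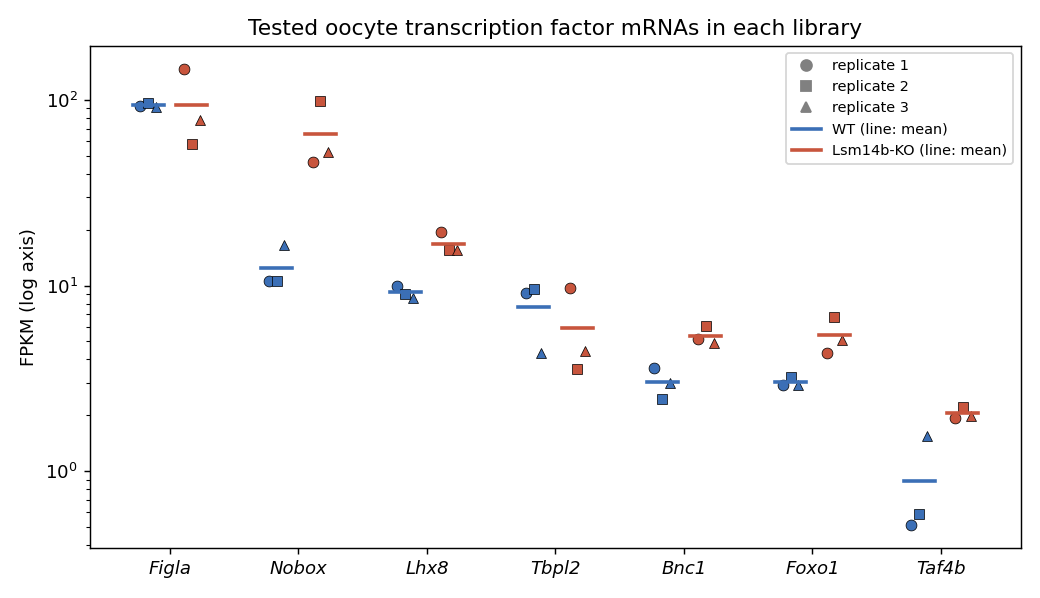
FPKM of the 7 tested members in each library on a log axis, in the order of their WT level, with WT in blue, Lsm14b-KO in red, a symbol per replicate and a line at the group mean. The Lsm14b-KO points lie above the WT points for Nobox, Lhx8, Bnc1, Foxo1 and Taf4b, whereas for Figla the Lsm14b-KO points fall on both sides of WT, from 57.8 to 147 FPKM.

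NOBOX is the homeodomain factor without which oocytes are lost soon after birth, and its gene lies on chromosome 6 (GRCm38, 43303674 to 43309554, minus strand). Its mRNA was at 10.5, 10.5 and 16.5 FPKM in WT replicates 1 to 3 and at 46.3, 98.9 and 52.3 FPKM in Lsm14b-KO replicates 1 to 3. All 3 Lsm14b-KO libraries were above the highest WT library, and Lsm14b-KO replicate 2 held the highest level. Mean Nobox went from 12.5 ± 3.42 to 65.8 ± 28.8 FPKM (SD over 3 libraries each). On the log2 scale this was a change of 2.25, with SE 0.36, a 95% interval of 1.41 to 3.09 and limma adjusted p = 0.0064. Ranked from the highest rise downwards, Nobox stood at position 14 of the 6398 tested genes and at position 10 of the 408 called higher. It stayed past the threshold under all 15 alternative settings, with log2 fold changes of 1.92 to 2.92 and adjusted p-values of 0.00051 to 0.042, including each setting that left out 1 library.

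LHX8, the LIM-homeodomain partner in the early oocyte program, is encoded on chromosome 3 (GRCm38, 154306294 to 154330659, minus strand) and showed a smaller difference. Its mRNA was at 10.0, 9.0 and 8.54 FPKM in WT and at 19.4, 15.5 and 15.5 FPKM in Lsm14b-KO replicates 1 to 3. The lowest Lsm14b-KO library was above the highest WT library. Mean Lhx8 went from 9.18 ± 0.75 to 16.8 ± 2.26 FPKM (SD over 3 libraries each). On the log2 scale this was a change of 0.80, with SE 0.23, a 95% interval of 0.27 to 1.34 and adjusted p = 0.0447. That call sat at the edge of the threshold. It was lost when WT replicate 1, 2 or 3 was left out (adjusted p = 0.127, 0.151 and 0.137) and when Lsm14b-KO replicate 2 or 3 was left out (0.0531 and 0.122). The fold change itself stayed between 0.70 and 1.45 under every alternative.

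Of the homeodomain factors that rose, Nobox had the larger fold change, and ratios from the same values restate it per library. Within a library, where the scaling of the library cancels, Nobox stood at 1.05, 1.17 and 1.93 times the FPKM of Lhx8 in WT and at 2.38, 6.39 and 3.37 times in Lsm14b-KO. The pair was chosen after its values were seen and carries no test. Every Lsm14b-KO ratio lay above every WT ratio.

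FIGLA directs the formation of primordial follicles and the expression of the zona pellucida genes, and its mRNA, from chromosome 6 (GRCm38, 86016171 to 86020996, plus strand), was the most abundant of the members in WT. It was at 92.2, 96.4 and 91.7 FPKM in WT and at 147, 57.8 and 78.1 FPKM in Lsm14b-KO replicates 1 to 3. The WT libraries lay close together, whereas the Lsm14b-KO libraries spread around them, with replicate 1 above and replicates 2 and 3 below. The means were 93.5 ± 2.61 and 94.4 ± 46.9 FPKM (SD over 3 libraries each). On the log2 scale the change was -0.096, with SE 0.38, a 95% interval of -0.97 to 0.78 and adjusted p = 0.860. An interval of this width leaves room for a change of almost 1 log2 unit either way. The sign turned with the scaling. When the FPKM of all libraries were brought to the same sum (TPM scaling), Figla stood at 74.1, 82.3 and 80.3 in WT and at 143, 102 and 115 in Lsm14b-KO, with a log2 fold change of 0.59 and an adjusted p of 0.0915. On that scale every Lsm14b-KO library lay above every WT library, and so did those of 32.5% of all tested genes. Without Lsm14b-KO replicate 2 the fold change on the deposited scale was 0.20 (adjusted p = 0.695).

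Relative to Figla of the same library, both homeodomain mRNAs stood higher in Lsm14b-KO, again for pairs chosen after their values were seen. The Nobox to Figla ratio was 0.114, 0.109 and 0.180 in WT and 0.314, 1.71 and 0.669 in Lsm14b-KO. The Lhx8 to Figla ratio was 0.109, 0.0933 and 0.0932 in WT and 0.132, 0.268 and 0.199 in Lsm14b-KO. The genotypes did not overlap in either ratio, and in Lsm14b-KO replicate 2 Nobox exceeded Figla.

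SOHLH1 and SOHLH2 belong to the earliest steps of oocyte differentiation, before growth is complete. Sohlh1 was listed at 0 in all 6 libraries. Sohlh2 was listed at 0, 0.106 and 0.117 FPKM in WT and at 0 in each Lsm14b-KO library. Neither reached 1 FPKM in any library, so neither was tested, and a difference between the genotypes was not detectable at these levels.

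TAF4B was the lowest of the tested members in all 6 libraries. Its mRNA was at 0.514, 0.587 and 1.55 FPKM in WT and at 1.94, 2.22 and 1.99 FPKM in Lsm14b-KO. The Lsm14b-KO libraries lay close together and above WT replicate 3, the highest WT library. The means were 0.88 ± 0.58 and 2.05 ± 0.15 FPKM (SD over 3 libraries each). The fitted log2 change was 0.74, with SE 0.24, a 95% interval of 0.17 to 1.30 and adjusted p = 0.0637. The call missed the threshold as deposited and passed it without WT replicate 3 (adjusted p = 0.0395) or without Lsm14b-KO replicate 1 (0.0498). In the latter setting 47.0% of all tested genes passed, 18.3% as higher. A correction for transcript length and GC content moved the Taf4b fold change to 0.54 (adjusted p = 0.139). The gene lies on chromosome 18 (GRCm38, 14783245 to 14900359, plus strand), where a processed pseudogene on the same strand overlaps it, so part of its reads may belong there.

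Taf4a, which encodes the TAF4 of most cells, the subunit whose place TAF4B can take, was at 1.27, 1.64 and 1.41 FPKM in WT and at 0.410, 0.558 and 0.139 FPKM in Lsm14b-KO, and it was lower in Lsm14b-KO (log2 fold change -0.84, SE 0.20, adjusted p = 0.0264). Leaving out WT replicate 1, 2 or 3 or Lsm14b-KO replicate 3 ended that call (adjusted p = 0.0762, 0.0992, 0.0764 and 0.113), and so did TPM scaling (-0.56, adjusted p = 0.136) and testing without a filter (0.0565). Taf4a reached 1 FPKM, and so was tested, only through the WT libraries, which favours lower values in Lsm14b-KO. The Taf4b to Taf4a ratio, a pair chosen after its values were seen, was 0.405, 0.357 and 1.10 in WT and 4.73, 3.97 and 14.3 in Lsm14b-KO, so that Taf4b was the more abundant of the pair in 1 WT library and in all 3 Lsm14b-KO libraries. The Lsm14b-KO ratios divide by Taf4a values under 1 FPKM, so their size is uncertain.

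TBPL2 takes the place of TBP at promoters of growing oocytes and is encoded on chromosome 2 (GRCm38, 24071721 to 24096595, minus strand). Its mRNA was at 9.15, 9.64 and 4.34 FPKM in WT and at 9.69, 3.54 and 4.42 FPKM in Lsm14b-KO. The genotypes overlapped fully, with 1 low library in WT and 2 low libraries in Lsm14b-KO. The means were 7.71 ± 2.93 and 5.89 ± 3.33 FPKM (SD over 3 libraries each). On the log2 scale this was a change of -0.38, with SE 0.40, a 95% interval of -1.30 to 0.55 and adjusted p = 0.492. With TPM scaling the fold change was 0.21 (adjusted p = 0.639).

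Tbp itself fell. It was at 18.9, 17.5 and 22.1 FPKM in WT and at 5.99, 6.24 and 4.91 FPKM in Lsm14b-KO, a log2 fold change of -1.61 (SE 0.23, 95% interval -2.14 to -1.07, adjusted p = 0.0047) that stayed past the threshold under all 15 alternatives. Tbpl2 stood at 0.485, 0.553 and 0.196 times Tbp in WT and at 1.62, 0.568 and 0.902 times in Lsm14b-KO, a pair chosen after its values were seen. The lowest Lsm14b-KO ratio barely exceeded the highest WT ratio, and only in Lsm14b-KO replicate 1 was Tbpl2 the more abundant of the pair.

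**Figure D2:**
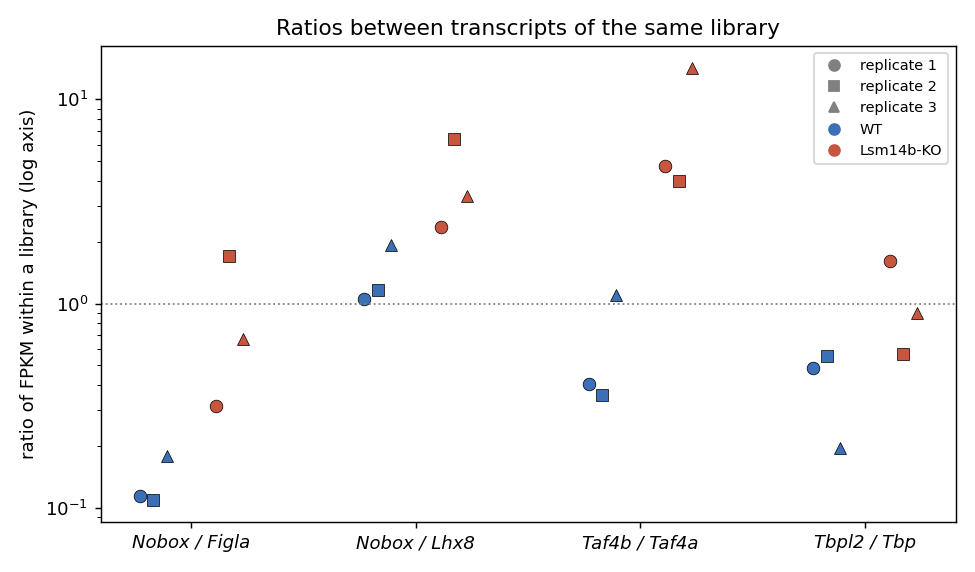
Ratio of the FPKM of 2 transcripts within each library on a log axis, for 4 pairs, with WT in blue, Lsm14b-KO in red, a symbol per replicate and a dotted line at equal levels. The Lsm14b-KO ratios lie above the WT ratios in each pair, by the least for Tbpl2 over Tbp (0.568 against 0.553 at the nearest points).

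The other subunits of TFIID and TFIIA gave a mixed picture around Taf4b and Tbpl2. Of 20 symbols searched, 19 were listed and 16 tested, with 1 higher, 4 lower and 11 not past the threshold. Among all tested genes 6.38% were called higher and 15.2% lower. The median log2 fold change was -0.37 against -0.075 for all tested genes. Taf13, a histone-fold subunit that pairs with TAF11, fell from 514, 499 and 456 FPKM in WT to 80.1, 29.9 and 38.7 FPKM in Lsm14b-KO (log2 fold change -3.40, SE 0.40, adjusted p = 0.0022) and stayed past the threshold under all 15 alternatives. Gtf2a2, the small subunit of TFIIA, was lower as well (-1.74, SE 0.46, adjusted p = 0.0333). Tbp and Taf4a, described above, were the remaining lower ones, of which Taf4a was tested only through its WT values. Taf5, a scaffold subunit of TFIID, was higher (0.79, SE 0.23, adjusted p = 0.0445). Leaving out 1 library ended the Gtf2a2 call for every library but Lsm14b-KO replicate 1 (adjusted p up to 0.126), and the Taf5 call for each WT library and for Lsm14b-KO replicate 3 (up to 0.151). The Gtf2a2 call was also lost with quantile normalization (-1.11, adjusted p = 0.0563) and the Taf5 call with the length and GC correction (0.68, adjusted p = 0.0761). Of the paralogues of members, 10 symbols were searched, 9 listed and 4 tested, with 0 higher, 2 lower (Tbp and Taf4a) and 2 not past the threshold. Bnc2, the paralogue of Bnc1, gave 0.13 (adjusted p = 0.660), and Foxo3, the FOXO factor known for holding primordial follicles dormant, was at 0.0961 to 0.466 FPKM in WT and 0.133 to 0.395 in Lsm14b-KO and was not tested.

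FOXO1 transduces loss of insulin and growth factor signals to transcription. Its mRNA was at 2.90, 3.22 and 2.92 FPKM in WT and at 4.31, 6.75 and 5.12 FPKM in Lsm14b-KO. The WT libraries lay within a narrow range below all of the Lsm14b-KO libraries. The means were 3.01 ± 0.18 and 5.39 ± 1.24 FPKM (SD over 3 libraries each). This amounted to a log2 change of 0.65, with SE 0.22, a 95% interval of 0.15 to 1.16 and adjusted p = 0.0639. Foxo1 was the longest of the tested members, at 8665 nt against 759 nt for Figla, and a correction for transcript length and GC content moved its fold change to 0.39 (adjusted p = 0.139). Without Lsm14b-KO replicate 1 it passed the threshold (0.78, adjusted p = 0.0145), where 47.0% of all tested genes did, 18.3% as higher. The gene (GRCm38, chromosome 3, 52268336 to 52353221, plus strand) is overlapped by the antisense transcript Gm20402 and, on its own strand, by Gm38034. Whether the libraries are stranded is not given in the sources used here, so reads of Foxo1 and of these genes cannot be told apart.

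BNC1, the zinc-finger protein basonuclin, is needed for normal oocyte growth. Its mRNA was at 3.61, 2.46 and 3.00 FPKM in WT and at 5.18, 6.03 and 4.88 FPKM in Lsm14b-KO. No library of one genotype reached the range of the other. The means were 3.02 ± 0.57 and 5.36 ± 0.59 FPKM (SD over 3 libraries each). On the log2 scale this was a change of 0.67, with SE 0.21, a 95% interval of 0.18 to 1.15 and adjusted p = 0.0552. It too passed the threshold without Lsm14b-KO replicate 1 (adjusted p = 0.0311), and a pseudogene on the opposite strand overlaps the gene (GRCm38, chromosome 7, 81966672 to 81992292, minus strand). Gcm1 was listed at 0 in all 6 libraries and was not tested.

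The number of members that passed varied with the scaling of the libraries, as it did with the libraries left out. With TPM scaling 5 members were past the threshold, Nobox, Lhx8, Bnc1, Taf4b and Foxo1, all higher in Lsm14b-KO, beside 20.6% of all tested genes, 13.0% as higher. TPM scaling moved the median of all genes up by 0.48 on the log2 scale and the share of higher genes among the calls from 29.5% to 63.2%. Quantile normalization moved the median by 0.14 and that share to 42.4%, and the length and GC correction by 0.18 and to 45.1%. Relative to the median of all genes the Nobox change was 2.33 as deposited and 2.52 with TPM scaling, that of Lhx8 was 0.88 and 1.05, and that of Foxo1 was 0.73 and 0.83. The length and GC correction left Nobox at 2.27 and Lhx8 at 0.78 relative to that median, but brought Foxo1 to 0.29, Bnc1 to 0.36 and Taf4b to 0.44.

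**Figure D3:**
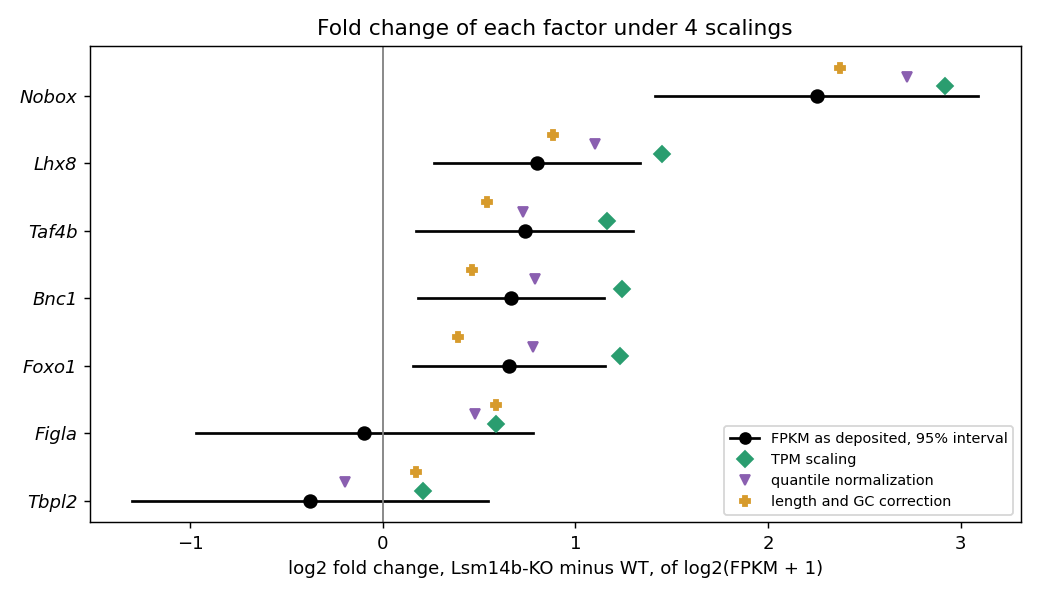
Log2 fold change (Lsm14b-KO minus WT) of the 7 tested members, as deposited with its 95% interval (black) and as a point under TPM scaling (green), quantile normalization (purple) and the length and GC correction (orange). Nobox lies between 2.25 and 2.92 and Lhx8 between 0.80 and 1.45, whereas Figla crosses 0, from -0.096 to 0.59, and so does Tbpl2, from -0.38 to 0.21.

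The order of the members by level varied between libraries but did not separate the genotypes. Lsm14b-KO replicate 1 had the same order as WT replicates 1 and 3. In each WT library Figla ranked at position 1 and Nobox at position 2, followed by Lhx8 and Tbpl2, whose WT ranges overlapped, then by Bnc1 and Foxo1, which overlapped too, and by Taf4b. In Lsm14b-KO the ranges of Figla and Nobox overlapped, and Nobox ranked at position 1 in replicate 2. Lhx8 was at position 3 in each Lsm14b-KO library, Bnc1, Foxo1 and Tbpl2 overlapped below it, and Taf4b stayed at position 7. The summed level of the 10 members was 128.6 to 132 FPKM in WT and 162 to 234 FPKM in Lsm14b-KO.

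Oocyte genes that are known or proposed to depend on these factors moved in both directions, as all tested genes did (6.38% called higher and 15.2% lower). Of 18 symbols searched, 17 were tested, with 2 higher, 2 lower and 13 not past the threshold, and the median log2 fold change was 0.34 against -0.075 for all tested genes. Padi6, which encodes a component of the cytoplasmic lattices, was at 50.1, 58.2 and 86.5 FPKM in WT and at 119, 224 and 184 FPKM in Lsm14b-KO (1.41, SE 0.36, adjusted p = 0.0304). Kit, the receptor for KIT ligand, was at 4.20, 3.46 and 4.58 FPKM in WT and at 7.26, 10.7 and 6.73 FPKM in Lsm14b-KO (0.84, SE 0.24, adjusted p = 0.0441). The lower ones were Fgf8 and H1foo. Fgf8, a growth factor that oocytes send to cumulus cells, was at 15.5, 16.3 and 23.9 FPKM in WT and at 1.52, 5.47 and 5.13 FPKM in Lsm14b-KO (-2.05, SE 0.40, adjusted p = 0.0128). Its call was lost without WT replicate 3 (-1.87, adjusted p = 0.0541) and with TPM scaling (-1.43, 0.0828). H1foo, the oocyte linker histone, was at 7840, 7575 and 8407 FPKM in WT and at 4962, 2909 and 3555 FPKM in Lsm14b-KO (-1.09, SE 0.28, adjusted p = 0.0310). Leaving out any library but Lsm14b-KO replicate 1 ended the Padi6, Kit and H1foo calls, with adjusted p-values up to 0.132, 0.156 and 0.126. H1foo was at -0.40 with TPM scaling (adjusted p = 0.0935) and Kit at 0.62 with the length and GC correction (0.0702), so that these calls also depended on the scaling. The zona genes Zp1, Zp2 and Zp3, targets of FIGLA, had log2 fold changes of 0.39, 1.12 and 0.65 and did not pass (adjusted p = 0.562, 0.191 and 0.228). Gdf9, bound by NOBOX, and Bmp15 gave 0.34 and 1.25 (adjusted p = 0.646 and 0.203), and the libraries of both overlapped between the genotypes. These 5 genes also stand among the oocyte markers.

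Among 6 other transcription regulators of oocytes, 5 were tested, 2 of which were higher and 0 lower. Of all tested genes, 6.38% were called higher and 15.2% lower. The median log2 fold change was 0.75, against -0.075 for all tested genes. Yy1, Brwd1 and Nr6a1 reached 1 FPKM, and so were tested, only through Lsm14b-KO libraries, which favours higher values in Lsm14b-KO. Pou5f1 did so only through WT replicate 1. Sall4, a zinc-finger factor of growing oocytes, was at 10.3, 8.33 and 8.82 FPKM in WT and at 22.4, 187 and 62.3 FPKM in Lsm14b-KO (2.69, SE 0.66, adjusted p = 0.0272). As for Nobox, Lsm14b-KO replicate 2 held the highest Sall4 level and replicate 1 the lowest of the Lsm14b-KO libraries. The Sall4 call was lost without WT replicate 1, 2 or 3 or Lsm14b-KO replicate 3 (adjusted p = 0.0864, 0.0905, 0.0856 and 0.0966). Yy1, a zinc-finger factor needed for oocyte growth, was at 0.368, 0.536 and 0.237 FPKM in WT and at 2.12, 1.76 and 1.46 FPKM in Lsm14b-KO (1.01, SE 0.20, adjusted p = 0.0137). Its call was lost without WT replicate 1 or 3 or Lsm14b-KO replicate 3 (adjusted p = 0.0571, 0.0536 and 0.0533). Nr6a1, the germ cell nuclear factor, gave 0.75 (SE 0.33, adjusted p = 0.129) and passed without Lsm14b-KO replicate 1 (0.0187), where 18.3% of all tested genes passed as higher.

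**Figure D4:**
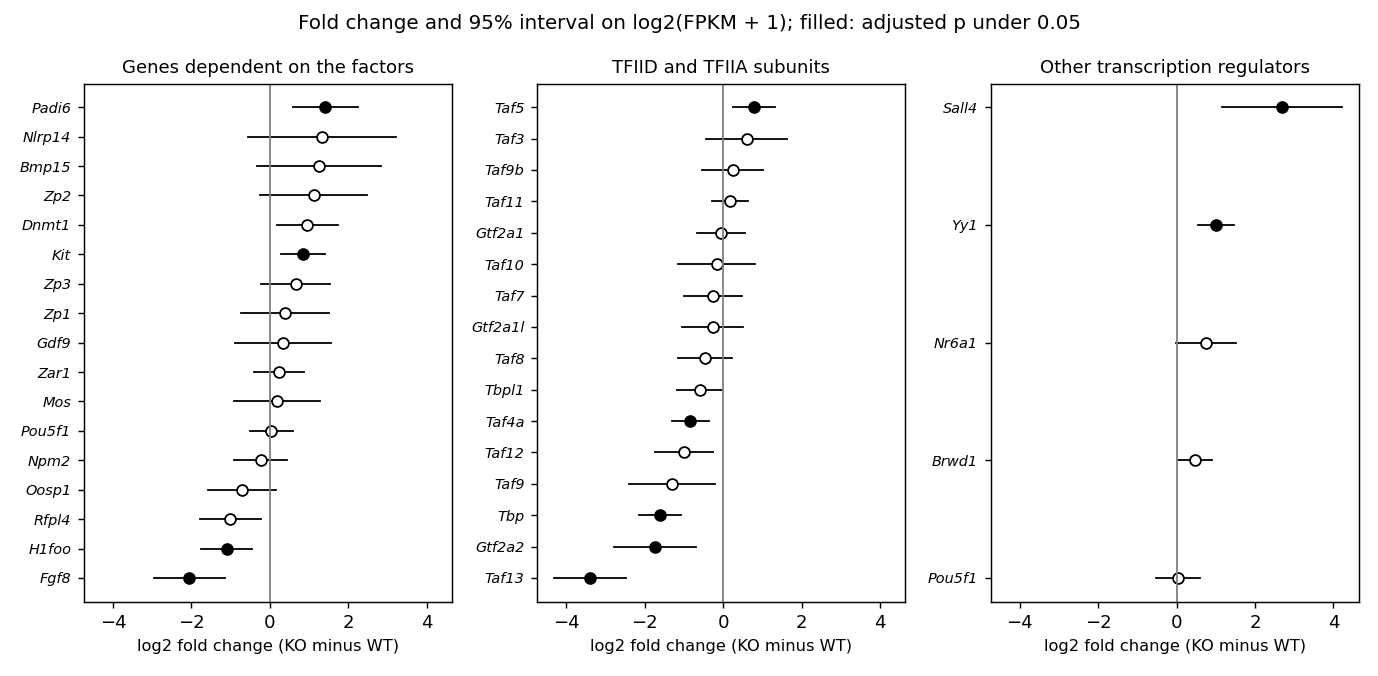
Log2 fold change (Lsm14b-KO minus WT) with 95% interval for genes dependent on the factors, TFIID and TFIIA subunits, and other transcription regulators, sorted by value, with filled points at an adjusted p under 0.05. The dependent genes run from -2.05 (Fgf8) to 1.41 (Padi6), the TFIID and TFIIA subunits from -3.40 (Taf13) to 0.79 (Taf5), and the other regulators from 0.036 (Pou5f1) to 2.69 (Sall4).

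The tested genes whose log2(FPKM + 1) over the 6 libraries was most like that of Nobox were B3galnt1, Ube3a, Senp1, Atg16l1 and Gsk3b, with Pearson r of 0.9974, 0.9963, 0.9960, 0.9958 and 0.9957. Their WT and Lsm14b-KO means were 7.45 and 21.5 FPKM for B3galnt1, 1.18 and 3.42 for Ube3a, 0.376 and 1.34 for Senp1, 0.988 and 2.76 for Atg16l1, and 0.209 and 0.872 for Gsk3b. With 6 libraries in 2 genotypes, any gene with a like rise correlates with Nobox, and 189 of 6397 tested genes reached an r of 0.95. At its WT mean, Gsk3b can have reached 1 FPKM, and so been tested, only through Lsm14b-KO libraries, which favours such a likeness.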

How the data were processed

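RNA-Seq gene expression was analysed in 3 WT and 3 Lsm14b-KO libraries of GV-stage FGOs, with groups taken from their titles. RNA, per the labels, was amplified by Smart-seq2, and TopHat2 (2.0.13), Cufflinks (2.2.1), Cuffnorm and Cuffdiff are named in the submitters' processing notes with the mm10 genome. The labels name more than 1 library kit, and strandedness is not given in the sources used here. The authors deposited FPKM per gene and library. Fragment numbers per library are not given, so no count model, interval or floor from depth was computed. The table's log2 fold change, p-value and q-value columns hold the authors' own comparison and were not used. A spreadsheet had turned 27 symbols into dates.

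Genes that reached 1 FPKM in any library entered limma 3.58.1 (R 4.3.3, lmFit and eBayes with an intensity trend) on log2(FPKM + 1), with genotype as the only term, two-sided, and Benjamini-Hochberg adjustment over all 6398 genes at 0.05. Because the labels do not say that libraries of a genotype came from separate animals, p-values measure only the spread between these libraries, which may be technical. The fit was tested on simulated data. Transcript lengths and GC shares were those of GENCODE vM21 (GRCm38, the assembly of mm10) for 6320 tested genes (98.8%), with a loess correction of span 0.5 as an alternative. Other alternatives were pseudocounts, filters, scalings, no trend, a replicate block and leaving out each library. Copies were searched with blastn 2.17.0 (95% identity over 200 nt), and apart from Gm20402 at the Foxo1 locus none was found for a member. Promoters came from RefSeq, with those on chromosome 18 left out. Of the lists (dependent genes, paralogues, TFIID and TFIIA subunits, other regulators, cell markers), each called gene was named, and the most abundant others up to 3. The members and lists were chosen with earlier results of these data known. Settings for the list genes were added after seeing the data.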

Additional observations from a re-analysis of the deposited data

How the results depend on the processing

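Nobox was past the threshold under all 15 alternatives and Lhx8 under 8 of 15. Taf4b and Bnc1 passed under 3 of 15, Foxo1 under 2, and Figla and Tbpl2 under 0. The number of members past the threshold, 2 as deposited, was 5 with TPM scaling, 1 without a filter and 1 with the replicate block, and 1 to 5 when 1 library was left out. The number of all genes past it, 1383 as deposited, was 720 of 14325 without a filter, and 321 (without Lsm14b-KO replicate 3) to 2952 (without Lsm14b-KO replicate 1) with 1 library left out. The Figla log2 fold change turned to 0.59 with TPM scaling, 0.48 with quantile normalization, 0.59 with the length and GC correction and 0.20 without Lsm14b-KO replicate 2, in a range of -0.47 to 0.20 over the libraries left out. That of Tbpl2 turned to 0.21 with TPM scaling and 0.17 with the length and GC correction. That of the oocyte marker Dppa3, -0.26 as deposited (adjusted p = 0.647), turned to 0.43, 0.27, 0.50 and 0.17 under the same 4 settings as Figla, in a range of -0.69 to 0.17 over the libraries left out. None of these reversed values passed the threshold (adjusted p = 0.0757 to 0.726), and their cause was not tested.

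Libraries of the 2 genotypes share replicate numbers. The deviations of same-numbered libraries from their group means correlated at 0.190, -0.128 and 0.018. Differently numbered libraries were not compared, so these values cannot decide whether the numbers pair the libraries. A replicate block gave 1244 calls in all and ended the calls of Lhx8 (adjusted p = 0.0814), H1foo (0.0583), Kit (0.0752) and Taf5 (0.0752). Without a filter the calls of Lhx8 (0.0713), Padi6 (0.0644), Kit (0.0881), H1foo (0.0858), Taf5 (0.0894), Gtf2a2 (0.0760), Sall4 (0.0740) and Cyp19a1 (0.0889) were lost. Read numbers were not used here, so the precision of transcripts under 1 FPKM, such as Sohlh2, is unknown, and 3 libraries per genotype limit the rest.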

Other observations

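The germ cell markers that served to check the libraries did not all move one way. Of the 10 oocyte markers, 1 was higher, 1 lower and 8 not past the threshold in Lsm14b-KO. Among all tested genes 6.38% were called higher and 15.2% lower. Ddx4, the germline RNA helicase VASA, was at 0.900, 0.700 and 0.388 FPKM in WT and at 2.86, 3.49 and 3.31 FPKM in Lsm14b-KO (log2 fold change 1.35, SE 0.20, adjusted p = 0.0050). Every Lsm14b-KO library lay above every WT library, and the call held under all 15 alternatives. Ddx4 reached 1 FPKM, and so was tested, only through the Lsm14b-KO libraries. Dazl, which encodes an RNA-binding protein of germ cells, was at 135, 128 and 155 FPKM in WT and at 34.4, 57.2 and 50.5 FPKM in Lsm14b-KO (-1.56, SE 0.30, adjusted p = 0.0131). Its groups did not overlap either, but the call was lost with TPM scaling (-0.88, adjusted p = 0.125), with quantile normalization (-0.97, 0.0834), and without WT replicate 1, 2 or 3 or Lsm14b-KO replicate 3 (0.0601 to 0.0653).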
